A study of Mus musculus with 8 samples.

Results

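The matrix metalloproteinases (Mmp), the ADAMTS proteases (Adamts), the ADAMTS-like proteins (Adamtsl) and the tissue inhibitors of metalloproteinases (Timp) were followed in bone marrow MSCs of WT and *Dnmt3l* KO mice. They were chosen by gene symbol alone, as every row of the expression table named Mmp, Timp, Adamts or Adamtsl with a number. This gave 51 of 24346 genes: 23 Mmp, 19 Adamts, 5 Adamtsl and 4 Timp genes. RNA was sequenced in 8 libraries, from WT and *Dnmt3l* KO cells that were either undifferentiated or differentiating, which makes 4 groups of 2 libraries. All cells were at passage 4 and on a C57BL/6 background. Undifferentiated MSCs were kept in growth medium with 20% FBS. Differentiating MSCs had spent 3 days in osteogenic medium with 10% FBS, 0.1 μM dexamethasone (a synthetic glucocorticoid), 10 mM β-glycerophosphate and 50 μM ascorbic acid 2-phosphate. The steroid, the serum level and the differentiation of the cells therefore cannot be told apart.

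KO mice were homozygous for the *Dnmt3l* tmEnls allele, and their littermates carried no mutant copy. *Dnmt3l* encodes a cofactor of the de novo DNA methyltransferases, and the allele is carried by every cell of the mouse and not by MSCs alone. The MSCs came from adult female mice, were depleted of CD11b+ and CD45+ cells, and were mixed from several mice of a genotype. The sources do not say whether each library had its own mix of mice, so p-values measure the spread between these libraries, which may be technical. *Dnmt3l* was listed at 0 in the 4 KO libraries and at 0.830 to 1.56 RPKM in the 4 WT libraries. The paper reports that the WT reads covered only the later exons of this gene. It did not detect the canonical DNMT3L protein in MSCs and did not exclude a short form. RPKM is the number of reads divided by transcript length and by the library's mapped reads, so that levels can be compared between genes. Depth was estimated at 48.2 to 67.0 M scaled reads per library. The 8 stromal marker genes were present in every library. Markers of macrophages and leukocytes summed to 19.2 to 19.9 RPKM in undifferentiated WT, 29.3 to 33.9 in differentiating WT, 7.82 to 8.41 in undifferentiated KO and 9.44 to 10.2 in differentiating KO MSCs, with *Ptprc* (CD45) at no more than 0.127 RPKM. Of 7 such markers tested, 3 were lower in KO by the limits given below before induction and 5 after it. Of all genes tested, 1.09% and 1.95% were. *Lyz2* was the largest part of these sums, at 12.8 and 13.4 RPKM in undifferentiated WT and 3.43 and 3.19 in undifferentiated KO libraries. *Csf1r* went the other way before induction, higher in KO (log2 difference 0.34, limma adjusted p = 0.0315). Of the neutrophil markers, *S100a9* was at 0 in all libraries and *Elane* at or below 0.0844 RPKM, while *S100a8*, the 1 that could be tested, was higher on induction in both genotypes, from at most 0.433 RPKM in the undifferentiated to 1.45 to 2.43 RPKM in the differentiating libraries. Of the osteoclast markers, *Calcr* was at or below 0.00456, *Dcstamp* 0.0116 and *Ocstamp* 0.0928 RPKM, and *Acp5* was higher on induction in both genotypes. *Oscar* read 0.238 and 0.168 RPKM in undifferentiated and 0.284 and 0.275 in differentiating WT libraries. In KO libraries *Oscar* went down instead, from 0.268 and 0.323 to 0.159 and 0.124 RPKM. Of 8 osteoblast markers, *Ibsp* was higher and *Sp7* lower on induction in both genotypes, and *Bglap* (osteocalcin) stayed at or below 0.708 RPKM. *Ibsp* and *Bglap* were also lower in KO before induction (log2 differences -1.33 and -1.49), and *Bglap* after it (-2.23). Within 2-fold, *Alpl* was lower in KO before induction (-0.970, limma adjusted p = 0.000327). After it *Ibsp* (-0.997), *Sp7* (-0.991), *Alpl* (-0.845), *Spp1* (-0.835) and *Runx2* (-0.454) were lower within 2-fold (limma adjusted p at most 0.0126). *Bglap2* and *Dmp1* did not pass the test in either state. Of the cartilage markers, *Col2a1* was lower on induction in both genotypes and lower in KO after it (-2.34), with 119 to 134 RPKM in the undifferentiated, 39.1 and 45.1 in the differentiating WT and 7.21 and 9.40 in the differentiating KO libraries. *Col10a1* was also lower on induction in WT (-1.85). In KO libraries *Col10a1* read 9.84 and 10.5 RPKM before and 2.49 and 2.36 RPKM after induction. *Sox9* went the other way, from 1.63 and 1.39 RPKM in undifferentiated to 6.53 and 5.96 in differentiating WT libraries. In KO libraries *Sox9* read 2.49 and 2.25 RPKM before and 4.09 and 4.91 RPKM after induction. The interaction was past both limits for *Col2a1* (-2.48) and for *Sox9* (-1.08), which rose less in KO. The part of these markers in the results below was not tested.

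MMPs are zinc-dependent proteases that cut collagens, proteoglycans and growth factor carriers outside the cell, and most are made as inactive precursors. ADAMTS proteases belong to a related family that trims procollagens, cuts aggrecan and versican, and shapes fibrillin microfibrils, whereas ADAMTS-like proteins share the binding domains but lack the protease domain. The 4 TIMPs bind the active site of MMPs and block it, and *Timp3* also blocks several ADAMTS proteases. In bone, collagenase-3 (*Mmp13*) and the membrane-anchored *Mmp14* take part in remodelling of the collagen matrix. *Mmp13* is known as a target of *Runx2* and of AP-1, the *Fos* and *Jun* transcription factors, in osteoblasts.

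Of the 51 genes, 10 lie side by side on chromosome 9 of mm10, between 7272514 and 7699585, within 427.1 kb. They are, in this order, *Mmp13*, *Mmp12*, *Mmp1b*, *Mmp3*, *Mmp1a*, *Mmp10*, *Mmp8*, *Mmp27*, *Mmp20* and *Mmp7*. The stretches of 120 bases that end at the last base before the RefSeq start site (GRCm38.p6, written 5′ to 3′ on the strand of the gene) are shown for the 4 cluster genes whose level allowed a test, and for *Mmp10* as a neighbour that stayed near 0. Capitals mark the AP-1 motif (TGACTCA or TGAGTCA) and the RUNX motif (AACCACA or TGTGGTT). The *Mmp13* stretch is chr9:7272394-7272513, that of *Mmp3* chr9:7445702-7445821, that of *Mmp10* chr9:7502222-7502341, that of *Mmp8* chr9:7558309-7558428 and that of *Mmp27* chr9:7571276-7571395, all on the plus strand.
Mmp13: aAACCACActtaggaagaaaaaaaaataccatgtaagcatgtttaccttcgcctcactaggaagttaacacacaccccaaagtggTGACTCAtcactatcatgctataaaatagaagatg
Mmp3: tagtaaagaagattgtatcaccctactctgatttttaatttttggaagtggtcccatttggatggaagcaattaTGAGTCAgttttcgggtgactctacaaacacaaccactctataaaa
Mmp10: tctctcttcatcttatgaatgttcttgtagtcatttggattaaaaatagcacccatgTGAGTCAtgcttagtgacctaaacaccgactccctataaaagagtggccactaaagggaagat
Mmp8: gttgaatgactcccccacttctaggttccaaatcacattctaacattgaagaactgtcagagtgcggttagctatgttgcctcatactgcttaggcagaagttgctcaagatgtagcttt
Mmp27: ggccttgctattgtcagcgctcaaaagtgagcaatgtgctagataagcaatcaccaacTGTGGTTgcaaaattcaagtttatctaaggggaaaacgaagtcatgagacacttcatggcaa

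In RefSeq windows of 250 bases before to 50 bases after the start site, searched on both strands, the AP-1 motif was found for 7 of the 10 cluster genes: *Mmp13*, *Mmp12*, *Mmp1b*, *Mmp3*, *Mmp1a*, *Mmp10* and *Mmp7*. It was found for 0 of the other 26 members with an entry in the table (36 of 51 matched), and for 5.95% of all 27025 genes. The distance to the start was 35 bases in *Mmp13*, 46 in *Mmp3* and 63 in *Mmp10*. The RUNX motif was found for *Mmp13*, *Mmp27* and *Mmp7*, for 0 of the other 26 members, and for 6.09% of all genes. The letters describe these windows only. *Mmp3* and *Mmp10* both carried the AP-1 motif, but *Mmp10* stayed at or below 0.0948 RPKM in every library.

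The levels of the 51 genes spanned a wide range. The highest group mean was at least 100 RPKM for 9 genes, from 10 to 100 RPKM for 10 genes and from 1 to 10 RPKM for 9 genes. A further 7 genes stayed below 1 RPKM but passed the minimum for testing, a mean of 0.1 RPKM over all libraries, which left 35 of the 51 genes for tests. In undifferentiated WT MSCs the order was led by *Timp3* (1383 ± 8.85 RPKM, SD, n = 2) and *Timp1* (1358 ± 44.8), which did not differ beyond their spread. They were followed by *Timp2* (335 ± 4.99), *Mmp2* (236 ± 3.73), *Mmp14* (181 ± 0.385) and *Mmp23* (111 ± 0.586). In differentiating KO MSCs the order began with *Timp2* (598 ± 3.01), *Timp1* (437 ± 70.7), *Adamts1* (246 ± 9.08) and *Adamts5* (194 ± 11.6).

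**Figure D1:**
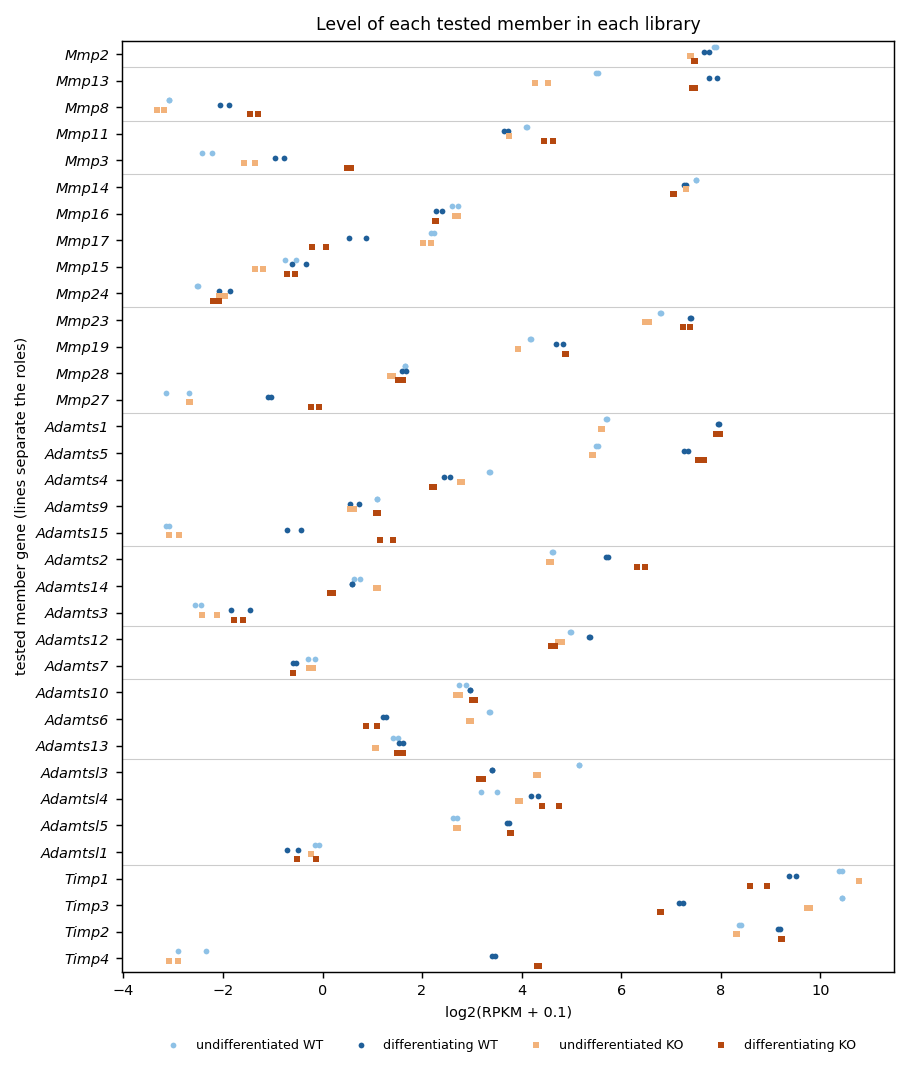
Level of the 35 tested genes as log2(RPKM + 0.1) on the x axis, with a row for each gene, a point for each of the 8 libraries (circles for WT, squares for KO, light for undifferentiated and dark for differentiating) and lines between the roles. *Timp1*, *Timp2* and *Timp3* lie to the right of all proteases in the undifferentiated libraries, and *Mmp8*, *Mmp27*, *Adamts15* and *Timp4* start at the left end and move right in the differentiating libraries.

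The other 16 genes were at most at 0.200 RPKM in any library and were not tested: *Adamts8*, *Adamts16*, *Adamts17*, *Adamts18*, *Adamts19*, *Adamts20*, *Adamtsl2*, *Mmp1a*, *Mmp1b*, *Mmp7*, *Mmp9*, *Mmp10*, *Mmp12*, *Mmp20*, *Mmp21* and *Mmp25*. *Mmp1a* was listed at 0 in all 8 libraries. *Mmp1a*, *Mmp1b*, *Mmp20*, *Adamts18* and *Adamts19* lay below the value of 3 reads in every library. For these genes that limit was 0.00823 to 0.05 RPKM, depending on the gene and the library, and it covers counting error only. The interstitial collagenases *Mmp1a* and *Mmp1b*, near copies of each other, and gelatinase B (*Mmp9*, typical of osteoclasts and leukocytes, at most 0.0339 RPKM) were therefore not detectable or close to the limit at this depth. *Adamts16* was the highest of these, at 0.170 and 0.200 RPKM in undifferentiated WT MSCs.

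Tests used limma on log2(RPKM + 0.1), with p-values adjusted over all 15342 genes tested by the Benjamini-Hochberg method. The 4 groups shared 1 estimate of the spread for each gene, though their spread was unequal. The mean squared difference of 2 replicates over counting error was 19.5 in differentiating KO and 7.76 in differentiating WT. It was 2.89 in undifferentiated KO and 3.29 in undifferentiated WT. SEs of comparisons with differentiating KO may thus be too small. A gene is said to have risen or fallen where the adjusted p-value was under 0.05, and is called a DEG where the change was also over 2-fold, the limits of the study. The added 0.1 makes the log2 changes of genes at low RPKM smaller than their ratios. In bulk RNA, fewer cells of a type and less RNA per cell cannot be told apart.

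Osteogenic induction changed most of these genes in both genotypes. In WT MSCs 10 of the 35 tested genes were DEGs with higher and 4 with lower expression, where 9.69% and 4.63% of all genes were. In KO MSCs 10 were higher and 5 lower, where 13% and 9.87% of all genes were. With a pseudocount of 1 there were 9 DEGs in WT and 11 in KO. The 10 higher genes were shared by both genotypes: *Adamts1*, *Adamts2*, *Adamts5*, *Adamts15*, *Adamtsl5*, *Mmp3*, *Mmp8*, *Mmp13*, *Mmp27* and *Timp4*. *Adamts15*, *Mmp8*, *Mmp27* and *Timp4* were under 0.1 RPKM in every undifferentiated library and reached the minimum only through the differentiating ones. The minimum thus favoured a higher call for them. *Adamts16*, at 0.170 and 0.200 RPKM in undifferentiated and 0.0250 and 0.0244 in differentiating WT libraries, stayed under the minimum. In KO libraries *Adamts16* read 0.0304 and 0.0422 RPKM before and 0.0333 and 0.0296 RPKM after induction. *Adamtsl2* stayed under the minimum as well, at 0.00641 to 0.0136 RPKM in the undifferentiated and 0.0831 to 0.133 RPKM in the differentiating libraries. The 4 genes lower in WT, *Adamts6*, *Adamtsl3*, *Mmp17* and *Timp3*, were also lower in KO, where *Timp1* joined them. Without the fold limit 30 genes passed in WT (64.4% of all genes did) and 32 in KO (72.9%), so that passing the p-value alone was common. The median log2 change of the 35 genes was 0.17 in WT and 0.50 in KO, against 0 and -0.0001 over all genes tested.

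**Figure D2:**
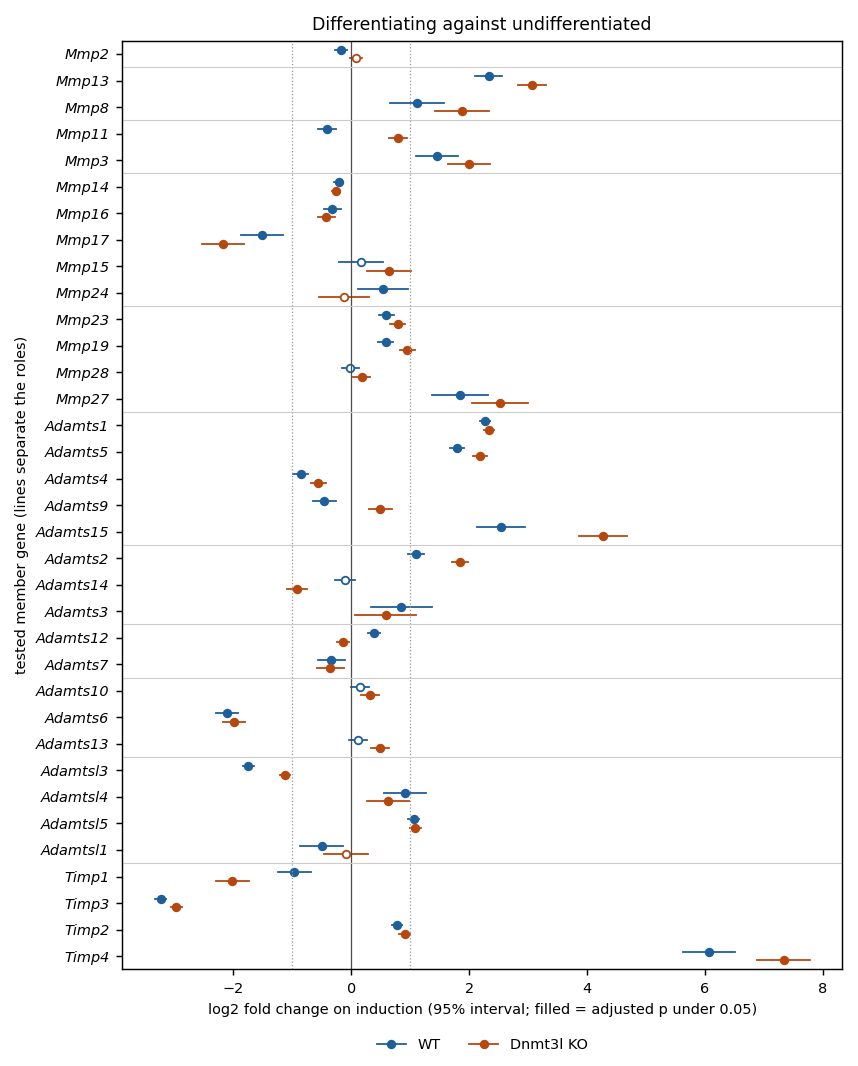
Log2 change on induction of the 35 tested genes with the 95% interval of limma, in WT (blue) and KO (brown). Filled points had an adjusted p under 0.05, and dotted lines mark the 2-fold limit. *Timp4* lies farthest to the right (6.06 in WT and 7.33 in KO), *Timp3* farthest to the left (-3.23 and -2.96), and *Mmp11* on opposite sides of 0 in the 2 genotypes.

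All 4 inhibitors changed on induction in both genotypes, *Timp1* and *Timp3* downward and *Timp2* and *Timp4* upward. *Timp3*, the TIMP that binds to the matrix and also blocks several ADAMTS proteases, read 1376 and 1389 RPKM in undifferentiated WT, 150.3 and 144 in differentiating WT, 883 and 850.4 in undifferentiated KO, and 112 and 110.4 in differentiating KO libraries. The groups did not overlap. It fell 9.40-fold in WT (log2 change -3.23, SE 0.04, adjusted p = 2.96e-07) and 7.80-fold in KO MSCs (-2.96, adjusted p = 1.63e-07).

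*Timp1*, a secreted inhibitor of most MMPs that binds membrane-type MMPs poorly, read 1326 and 1389.7 RPKM in undifferentiated WT, 658 and 730.1 in differentiating WT, 1761 and 1757 in undifferentiated KO, and 487 and 387 in differentiating KO libraries. The KO libraries were the highest before induction and the lowest after it. The KO difference before induction (0.37) did not pass the limma test (adjusted p = 0.0527), and that after it (-0.68) did (adjusted p = 0.00663). Both calls depended on the fit. Before induction the difference passed with quantile normalization (0.59, adjusted p = 0.00886) and with only the libraries compared (adjusted p = 0.0208). After induction it missed the limit with only the libraries compared (adjusted p = 0.0563). *Timp1* fell in both genotypes, by 0.97 on the log2 scale in WT (SE 0.11, adjusted p = 0.000573), just short of the fold limit, and by 2.02 in KO (adjusted p = 1.49e-05). The change in KO was 1.05 further down (SE 0.16, adjusted p = 0.00483, limma interaction). Without replicate 2 of differentiating WT this difference was -0.98, and without replicate 2 of differentiating KO it was -0.88, both within the 2-fold limit.

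*Timp2*, which inhibits MMPs and also joins the precursor of *Mmp2* to *Mmp14* at the cell surface, moved the other way. It read 338 and 331 RPKM in undifferentiated WT, 583 and 564 in differentiating WT, 322 and 316 in undifferentiated KO, and 596 and 600.2 in differentiating KO libraries. It rose by 0.78 in WT and 0.91 in KO, and the genotypes did not pass the test in either state (adjusted p = 0.204 and 0.243).

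*Timp4*, the TIMP with the most tissue-restricted expression, went from near 0 to a clear level. It read 0.0336 and 0.0964 RPKM in undifferentiated WT, 11.0 and 10.5 in differentiating WT, 0.0171 and 0.0332 in undifferentiated KO, and 19.6 and 20.4 in differentiating KO libraries. The log2 change was 6.06 in WT and 7.33 in KO (SE 0.18 for both), and the difference of the changes was 1.27 (SE 0.26, adjusted p = 0.0117). That difference was 0.89 with a pseudocount of 1, 0.99 without replicate 2 of undifferentiated WT, and 1.24 with an adjusted p of 0.0504 without replicate 2 of differentiating WT. After induction the KO difference was 0.89 (adjusted p = 0.0117), which does not reach 2-fold. With a pseudocount of 0.01 it was 0.90 and did not pass (adjusted p = 0.142), nor with 3 of the 4 libraries left out in turn (adjusted p = 0.0534 to 0.0725). *Timp4* lies on chromosome 6 (115241892 to 115252205, minus strand) within *Syn2*, a gene of the opposite strand, and the reads were strand-specific. *Syn2* read at most 0.0783 RPKM in the 4 undifferentiated libraries and 1.21 to 1.53 RPKM in the 4 differentiating libraries. *Timp1* and *Timp3* lie likewise within *Syn1* and *Syn3*, which stayed between 0.108 and 0.386 RPKM.

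**Figure D3:**
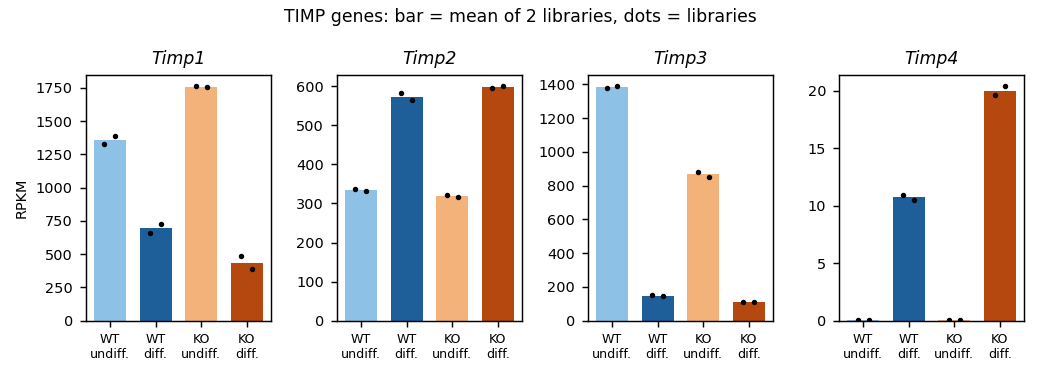
RPKM of the 4 *Timp* genes on linear axes that start at 0 and differ between panels. Bars are the means of 2 libraries and dots the libraries. *Timp3* falls and *Timp2* rises on induction in both genotypes, *Timp4* goes from under 0.1 RPKM to at least 10.5 RPKM, and *Timp1* is highest in undifferentiated and lowest in differentiating KO libraries.

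The makeup of the inhibitors and the balance of summed levels shifted with these changes. The 4 Timp genes together read 3041 and 3110 RPKM in undifferentiated WT, 1402 and 1449 in differentiating WT, 2967 and 2923 in undifferentiated KO, and 1214 and 1118 in differentiating KO libraries. *Timp3* made up 45.3% and 44.7% of this sum in undifferentiated WT libraries, 29.8% and 29.1% in undifferentiated KO libraries and 9.20% to 10.7% in the 4 differentiating libraries. The Adamts sum went the other way, from 168 to 189.2 RPKM in the undifferentiated libraries to 515.6 to 578.6 in the differentiating ones. The ratio of the Timp sum to the sum of Mmp and Adamts genes was 3.74 and 3.85 in undifferentiated WT, 1.03 and 1.11 in differentiating WT, 4.56 and 4.51 in undifferentiated KO, and 0.951 and 0.871 in differentiating KO libraries. These are sums of RNA levels and carry no test, and the TIMPs do not all block the same enzymes.

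Among the collagenases, *Mmp13* was the abundant member. It read 44.7 and 46.5 RPKM in undifferentiated WT, 242 and 218 in differentiating WT, 19.1 and 23.0 in undifferentiated KO, and 172 and 179 in differentiating KO libraries. KO lay below WT in both states and the groups did not overlap. It rose 5.02-fold in WT (log2 change 2.33, SE 0.10, adjusted p = 7.69e-06) and 8.35-fold in KO (3.06, adjusted p = 1.68e-06). The difference after induction (-0.39, adjusted p = 0.0225) did not pass with any of the 4 libraries left out (adjusted p = 0.0539 to 0.112). The rise in KO was larger by 0.73 (adjusted p = 0.00859, limma interaction), from a lower start. *Mmp8*, the collagenase of neutrophils, was below the value of 3 reads in the 4 undifferentiated libraries and read 0.139, 0.173, 0.265 and 0.305 RPKM in the WT and KO differentiating libraries. Its log2 changes, 1.12 in WT and 1.88 in KO, depend on the pseudocount and were 0.18 and 0.35 with a pseudocount of 1.

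The other tested genes of the chromosome 9 cluster also rose from low levels. *Mmp3* (stromelysin-1, which cuts proteoglycans and activates other MMPs) read 0.115 and 0.0854 RPKM in undifferentiated WT, 0.485 and 0.414 in differentiating WT, 0.234 and 0.290 in undifferentiated KO, and 1.30 and 1.38 in differentiating KO libraries. It rose by 1.46 in WT and 2.00 in KO, and KO was above WT in both states. *Mmp27*, a little-studied MMP of the same cluster, read 0.0134 to 0.0571 RPKM in the 4 undifferentiated libraries, 0.369 and 0.388 in differentiating WT, and 0.751 and 0.847 in differentiating KO libraries. All 4 tested cluster genes were DEGs with higher expression on induction in both genotypes. With a pseudocount of 1, however, only *Mmp13* of these 4 stayed past the fold limit. *Mmp8* and *Mmp27* reached the minimum for testing only through their differentiating libraries, which favoured a higher call. The cluster did not move as a block between genotypes: before induction *Mmp13* was lower and *Mmp3* higher in KO. The other 6 cluster genes were not tested.

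**Figure D4:**
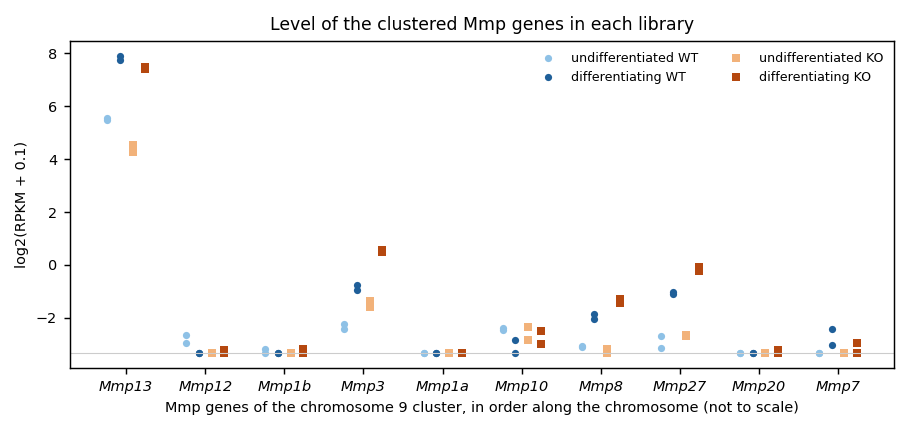
Level of the 10 *Mmp* genes of the chromosome 9 cluster as log2(RPKM + 0.1) on the y axis, in their order along the chromosome and not to scale, with a point for each library. The grey line is a value of 0 RPKM. *Mmp13* lies between 19.1 and 242 RPKM, *Mmp3* reaches 1.38, *Mmp27* 0.847 and *Mmp8* 0.305 RPKM, and the other genes stay at or below 0.0948 RPKM.

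The levels of *Fos*, an AP-1 subunit, moved with genotype in the same libraries as *Mmp13*, but those of the other AP-1 genes did not all do so. *Fos* read 13.3 and 14.5 RPKM in undifferentiated WT, 3.53 and 4.04 in undifferentiated KO, 18.7 and 20.2 in differentiating WT, and 15.7 and 16.0 in differentiating KO libraries. Of the 7 *Fos* and *Jun* genes, *Fos* was the 1 DEG between genotypes before induction (log2 change -1.85, SE 0.08, limma adjusted p = 1.62e-04). Its difference after induction was -0.29. *Fosl1* went the opposite way, higher in KO before induction (0.59, limma adjusted p = 0.0018) and lower after it (-0.57). *Junb* was lower in KO before induction (-0.35), and *Fosb*, *Fosl2*, *Jun* and *Jund* did not pass the test there. *Runx2* read 4.50 to 5.29 RPKM in the undifferentiated and 3.67 to 5.57 RPKM in the differentiating libraries. The part of these factors in the Mmp levels was not tested.

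*Mmp2* and *Mmp14* stayed within 2-fold on induction. *Mmp2* (gelatinase A, which cuts denatured and basement membrane collagens) read 239 and 233 RPKM in undifferentiated WT, 216 and 203 in differentiating WT, 167 and 169 in undifferentiated KO, and 176 and 179 in differentiating KO libraries. Its change was -0.17 in WT (adjusted p = 0.00868) and 0.08 in KO (adjusted p = 0.11). The call in each genotype turned with quantile normalization (-0.07 in WT, adjusted p = 0.337, and 0.21 in KO, adjusted p = 0.0222), and the KO value was -0.002 after median centring. *Mmp14* (which activates the *Mmp2* precursor) read 181 RPKM in both undifferentiated WT, 158 and 154 in differentiating WT, 158 and 157 in undifferentiated KO, and 133 and 131 in differentiating KO libraries. It fell by 0.21 in WT and 0.25 in KO. The KO level was thus lower than WT in each state for both genes, by 0.49 and 0.24 for *Mmp2* and by 0.20 and 0.24 for *Mmp14*.

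*Mmp17*, a membrane-type MMP held by a lipid anchor, read 4.43 and 4.62 RPKM in undifferentiated WT, 1.34 and 1.74 in differentiating WT, 4.43 and 3.97 in undifferentiated KO, and 0.948 and 0.767 in differentiating KO libraries. It fell by 1.51 in WT and 2.17 in KO, and the changes differed by -0.66 (adjusted p = 0.0466, limma interaction). With a pseudocount of 1 this difference was -0.36 (limma adjusted p = 0.0786). It also missed the limit with quantile normalization (adjusted p = 0.0616), no expression minimum (0.067), no variance trend (0.0588) and a block for replicate number (0.0803). Most fits with a single library left out missed it too. The other membrane-type genes tested, *Mmp15*, *Mmp16* and *Mmp24*, were not DEGs in any comparison. They ranged from 0.0744 RPKM for *Mmp24* to 6.46 RPKM for *Mmp16*.

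*Mmp11* (stromelysin-3, which is activated inside the cell by furin-type convertases) was the MMP whose direction on induction depended on genotype. It read 17.2 and 16.9 RPKM in undifferentiated WT, 13.1 and 12.4 in differentiating WT, 13.3 and 13.4 in undifferentiated KO, and 21.7 and 24.5 in differentiating KO libraries. It fell by 0.42 in WT (adjusted p = 0.00153) and rose by 0.79 in KO (adjusted p = 5.73e-05). The changes differed by 1.20 (SE 0.09, adjusted p = 6.85e-04, limma interaction), and in all fits tried this difference stayed past both limits.

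*Mmp19* and *Mmp23* rose in both genotypes within 2-fold. *Mmp23*, an unusual MMP that starts as a membrane protein, read 110.3 and 111 RPKM in undifferentiated WT, 166 and 169 in differentiating WT, 93.7 and 89.1 in undifferentiated KO, and 166 and 151 in differentiating KO libraries. *Mmp19*, a secreted MMP of broad expression, read 17.8 and 18.1 RPKM in undifferentiated WT, 28.3 and 25.6 in differentiating WT, 15.0 and 15.2 in undifferentiated KO, and 29.7 and 29.0 in differentiating KO libraries. For both genes KO was slightly below WT before induction (by 0.28 and 0.25) and did not pass the test after it. The pass before induction was lost with any of the 4 libraries left out for *Mmp19* and with 3 of them for *Mmp23*. *Mmp28* stayed between 2.46 and 3.12 RPKM.

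Among the ADAMTS proteases that cut aggrecan and versican, 3 of the 5 tested were DEGs with higher expression on induction in both genotypes. *Adamts1* read 52.1 and 51.4 RPKM in undifferentiated WT, 251 and 246 in differentiating WT, 49.1 and 48.4 in undifferentiated KO, and 252 and 239 in differentiating KO libraries. WT and KO overlapped after induction. It rose 4.80-fold in WT (log2 change 2.26, SE 0.03, adjusted p = 4.53e-07), and the change in KO differed by 0.07 (95% interval -0.05 to 0.19, adjusted p = 0.313).

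*Adamts5*, known as a main aggrecanase of mouse cartilage, read 46.1 and 45.1 RPKM in undifferentiated WT, 161 and 154 in differentiating WT, 42.9 and 42.3 in undifferentiated KO, and 186 and 202 in differentiating KO libraries. It rose by 1.79 in WT and 2.18 in KO, more in KO by 0.39 (adjusted p = 0.00706, limma interaction). *Adamts1* and *Adamts5* are neighbours, 53.1 kb apart on chromosome 16 and both on the minus strand.

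*Adamts15*, a versican-cutting protease, was near 0 before induction. It read 0.0178 and 0.0136 RPKM in undifferentiated WT, 0.637 and 0.509 in differentiating WT, 0.0181 and 0.0352 in undifferentiated KO, and 2.13 and 2.56 in differentiating KO libraries. The differentiating KO libraries were above all the others. The log2 change was 2.53 in WT and 4.27 in KO (SE 0.17 for both). It depends on the pseudocount and was 0.63 in WT, within the fold limit, and 1.70 in KO with a pseudocount of 1, and 4.50 and 6.04 with 0.01. The changes differed by 1.74 (SE 0.24, adjusted p = 0.00332). Its neighbour *Adamts8*, 20.1 kb away on chromosome 9, stayed at or below 0.0242 RPKM. *Adamts4*, the other classic aggrecanase, went the opposite way. It read 10.2 and 10.1 RPKM in undifferentiated WT, 5.32 and 5.84 in differentiating WT, 6.86 and 6.65 in undifferentiated KO, and 4.59 and 4.50 in differentiating KO libraries, and it fell by 0.85 in WT and 0.56 in KO.

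The procollagen N-proteinases remove the amino-terminal propeptide of fibrillar collagens. *Adamts2*, the main one for type I collagen, read 24.3 and 24.5 RPKM in undifferentiated WT, 52.9 and 51.6 in differentiating WT, 23.9 and 23.2 in undifferentiated KO, and 79.8 and 89.6 in differentiating KO libraries. The genotypes lay close together before induction and apart after it. *Adamts2* rose by 1.10 in WT and 1.84 in KO, more in KO by 0.74 (SE 0.08, adjusted p = 0.00164, limma interaction). The other 2, *Adamts3* and *Adamts14*, stayed at or below 2.07 RPKM.

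*Adamts12*, which cuts the cartilage protein COMP, read 31.8 and 31.2 RPKM in undifferentiated WT, 41.5 and 40.9 in differentiating WT, 27.8 and 26.4 in undifferentiated KO, and 25.4 and 23.9 in differentiating KO libraries. It rose by 0.39 in WT and fell by 0.14 in KO, a difference of -0.52 (adjusted p = 0.00192, limma interaction). *Adamts7*, which also cuts COMP, stayed at or below 0.795 RPKM. *Adamts6*, a protease tied to fibrillin microfibrils, read 10.1 and 10.2 RPKM in undifferentiated WT, 2.23 and 2.33 in differentiating WT, 7.62 and 7.81 in undifferentiated KO, and 1.73 and 2.03 in differentiating KO libraries. It fell by 2.11 in WT and 1.99 in KO. *Adamts10* and *Adamts13*, the latter the protease of von Willebrand factor, were not DEGs in any comparison.

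The ADAMTS-like proteins moved in both directions. *Adamtsl3* read 35.5 and 35.6 RPKM in undifferentiated WT, 10.6 and 10.5 in differentiating WT, 19.4 and 19.9 in undifferentiated KO, and 8.71 and 9.23 in differentiating KO libraries. It fell by 1.75 in WT and 1.12 in KO, and the undifferentiated KO level was lower by 0.86 (SE 0.04, adjusted p = 1.67e-04). *Adamtsl5* read 6.42 and 6.07 RPKM in undifferentiated WT, 13.2 and 13.0 in differentiating WT, 6.31 and 6.46 in undifferentiated KO, and 13.8 and 13.6 in differentiating KO libraries, with rises of 1.06 and 1.09. *Adamtsl4*, which binds fibrillin-1, read 11.2 and 9.03 RPKM in undifferentiated WT, 20.0 and 18.1 in differentiating WT, 15.2 and 15.6 in undifferentiated KO, and 21.1 and 26.9 in differentiating KO libraries. It rose by 0.91 in WT and 0.62 in KO. *Adamtsl1* stayed at or below 0.852 RPKM.

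The comparison of genotypes before induction asks how KO and WT MSCs differed in growth medium. Of the 35 genes, 0 were DEGs with higher and 1 with lower expression in KO, where 0.613% and 1.09% of all genes were. The 1 DEG was *Mmp13*, at a level 2.17-fold lower in KO (log2 change -1.12, SE 0.10, adjusted p = 0.00106), and without replicate 1 of undifferentiated KO its change was -0.98, within the fold limit. Without the fold limit 3 genes were higher and 15 lower in KO, so that 18 of 35 passed where 32.2% of all genes did (21 of 35 at an unadjusted p under 0.05 in limma). The 3 higher were *Adamts14*, *Adamtsl4* and *Mmp3*. For *Adamtsl4* the pass was lost with 3 of the 4 libraries left out in turn. The 15 lower included the abundant *Timp3* (by 0.67), *Mmp2*, *Mmp14* and *Mmp23*, besides *Adamtsl3* and *Adamts4* (by 0.58). The median log2 difference of the 35 genes was -0.13, against -0.0027 over all genes tested.

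After 3 days of induction 2 of the 35 genes were DEGs with higher and 0 with lower expression in KO, where 1.36% and 1.95% of all genes were. They were *Adamts15* (log2 change 1.86, SE 0.17, adjusted p = 0.00116) and *Mmp3* (1.39, SE 0.15, adjusted p = 0.00161), both of low level, and with a pseudocount of 1 the value for *Mmp3* was 0.69. Without the fold limit 9 genes were higher and 11 lower, 20 of 35, where 40.7% of all genes passed (21 of 35 at an unadjusted p under 0.05 in limma). The higher ones included *Mmp11* (by 0.85), *Timp4*, *Adamts2* (by 0.69) and *Adamts5*, and the lower ones *Timp1* (by 0.68), *Timp3* (by 0.40), *Mmp13* (by 0.39), *Mmp17* (by 0.77) and *Adamts12* (by 0.74). The median of the 35 genes was -0.02, against -0.0067 over all genes tested. Both genotype comparisons share libraries with the induction comparisons, so their values are not independent of these.

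**Figure D5:**
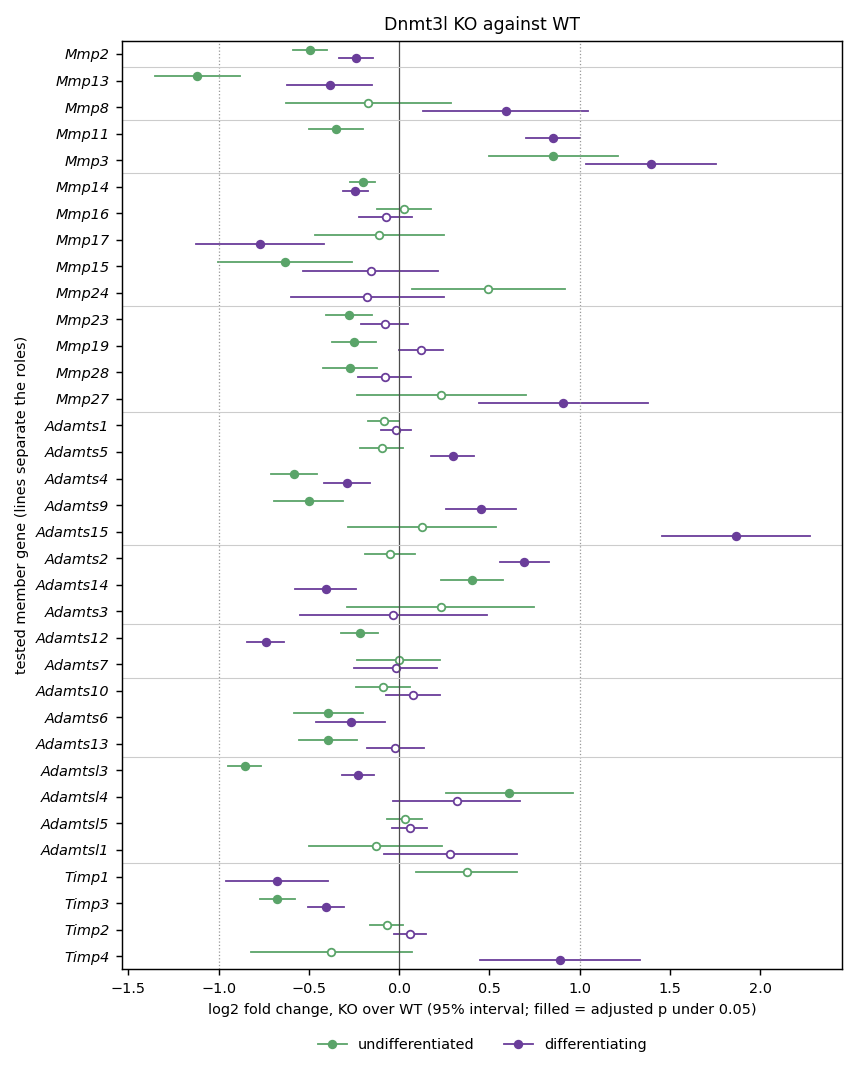
Log2 difference of KO from WT for the 35 tested genes with the 95% interval of limma, in undifferentiated (green) and differentiating (purple) MSCs. Filled points had an adjusted p under 0.05, and dotted lines mark the 2-fold limit. *Mmp13* (-1.12) lies past the limit before induction, and *Adamts15* (1.86) and *Mmp3* (1.39) after it.

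The interaction asks whether induction changed a gene differently in KO and WT MSCs. Of the 35 genes, 3 were DEGs by a higher change in KO (*Adamts15*, *Mmp11* and *Timp4*) and 1 by a lower change (*Timp1*), where 2.76% and 3.42% of all genes were. Without the fold limit 13 were higher and 4 lower, 17 of 35, where 39.4% of all genes passed. The 4 lower were *Timp1*, *Adamts12*, *Adamts14* and *Mmp17*, the last of which depended on the fit as given above. The median was 0.25, against -0.007 over all genes tested. In *Mmp11* and *Adamts9* the sign of the KO difference turned from lower to higher with induction, and in *Adamts14* from higher to lower. In all 3 the difference passed the test in each state, but for *Mmp11* before induction (-0.35) it did not with any of the 4 libraries left out (adjusted p = 0.0512 to 0.06). *Adamts9*, which cuts versican, read 1.36 to 2.05 RPKM over all libraries. *Adamts9* and *Adamts14* were picked out after looking at their values.

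The genes that activate or hold these proteases in check, and some of their substrates, were taken from a list of 25 genes, of which 22 were tested (*Plg*, *A2m* and *Acan* were below the minimum). On induction 5 were DEGs with higher and 3 with lower expression in WT, where 9.69% and 4.63% of all genes were. In KO 5 were higher and 4 lower, where 13% and 9.87% of all genes were. *Reck*, a membrane inhibitor of MMPs, *Comp*, a substrate of *Adamts7* and *Adamts12*, and *Papln*, an ADAMTS relative, were higher in both genotypes. *Plau* (urokinase) and its receptor *Plaur*, parts of the plasmin system that can activate pro-MMPs, were lower in both. Before induction 1 was higher in KO and 1 lower, where 0.613% and 1.09% of all genes were. The higher was *Serpinb2*, an inhibitor of urokinase, at 2.05 and 2.26 RPKM in WT and 7.49 and 7.18 in KO libraries. The lower was *Pcsk5*, a furin-type convertase, at 1.24 and 1.32 RPKM in WT and 0.486 and 0.461 in KO libraries.

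By the interaction, the genes of the list with a lower change in KO included *Serpinb2* (-2.34), *Tfpi2* (-1.41) and *Plaur* (-1.13). *Tfpi2*, an inhibitor of plasmin and some MMPs, read 0.873 and 1.13 RPKM in undifferentiated WT, 4.59 and 4.41 in differentiating WT, 1.84 and 2.02 in undifferentiated KO, and 3.00 and 3.22 in differentiating KO libraries. *Plaur* read 70.9 and 73.2 RPKM in undifferentiated WT, 17.4 and 18.0 in differentiating WT, 91.6 and 89.1 in undifferentiated KO, and 10.8 and 9.39 in differentiating KO libraries. The 4 glucocorticoid response genes (*Fkbp5*, *Tsc22d3*, *Per1* and *Zbtb16*) were DEGs with higher expression on induction in both genotypes.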

How the data were processed

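The authors removed ribosomal RNA, sequenced strand-specific single-end libraries, aligned reads to mm10 with TopHat2 2.1.0 and computed gene values with Cuffdiff (Cufflinks 2.2.1), per the paper and the submitters' processing notes. The authors deposited RPKM for each gene in each library, without pooling. RPKM gives no read counts: the steps between low values gave the scaled depth, but 69.6% to 71.6% of low values were whole reads (within 0.05 reads; 10% by chance), too few for a count test. From there, genes whose mean reached 0.1 RPKM were put on the log2(RPKM + 0.1) scale, and a model with a mean for each group and a variance trend was fitted with limma 3.58.1 (R 4.3.3) over all 8 libraries, and p-values were adjusted over 15342 genes. The fit was tested on simulated data. Values per library are given for DEGs, genes with a group mean of at least 10 RPKM and all Timp genes. Positions are from GENCODE (mm10) and promoters from RefSeq (GRCm38.p6). Python 3.11.15 with pandas 2.3.3 and matplotlib 3.10.9 was used for the rest. Members, lists and tests were chosen with earlier results of these data known. Alternatives covered the pseudocount, the minimum, scaling, the fold limit, a replicate block, the trend of the variance, the libraries fitted and each library left out. A gene of the list of activators, inhibitors and substrates is counted but not reported here.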

Additional observations from a re-analysis of the deposited data

Results flagged for a closer look

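The change on induction differed between KO and WT MSCs, by the limma interaction and over 2-fold, in 4 genes. *Adamts15* rose more in KO (difference of log2 changes 1.74, SE 0.24, adjusted p = 0.00332), with both differentiating KO libraries above those of WT. *Mmp11* fell in WT and rose in KO (1.20, SE 0.09, adjusted p = 6.85e-04). *Timp4* rose more in KO (1.27, SE 0.26, adjusted p = 0.0117). *Timp1* fell further in KO (-1.05, SE 0.16, adjusted p = 0.00483). The summed macrophage and leukocyte markers, with *Lyz2* as the largest part, were lower in KO in both states in the same libraries. Not every such marker was, since *Csf1r* was higher in KO before induction. The part of these markers in the 4 differences was not tested.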

How the results depend on the processing

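Of 36 DEG calls of the members described by library, over 476 fits under the alternatives, 457 kept direction and call, 19 kept the direction only and 0 reversed. The number of DEGs before induction between genotypes (1) became 2 with a pseudocount of 0.01 and 2 with no expression minimum, and ranged from 0 to 1 with each library left out. After induction (2) it was 1 with a pseudocount of 1 and 2 with each library left out. For induction in WT (14) it was 9 with a pseudocount of 1 and 14 to 16 with libraries left out, and in KO (15) it was 11 with a pseudocount of 1, 17 with quantile normalization, 16 with median centring and 15 with each library left out. The interaction (4) ranged from 2 to 5, and was 2 without replicate 2 of differentiating WT, where *Timp1* (-0.98) and *Timp4* (1.24, limma adjusted p = 0.0504) were lost. With no limit on the fold change the numbers were 18, 20, 30, 32 and 17. Of passes of the p-value alone among the 24 genes described by library, 6 of 13 between genotypes before induction, 11 of 18 after it and 5 of 14 in the interaction were lost in at least 1 fit, against 1 of 24 and 2 of 23 for induction in WT and KO. A lone library was assumed to vary like the other groups.

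The values that changed sign were all close to 0 and not called: *Timp2* between genotypes before induction (0.0177) and the interaction of *Mmp14* (0.0391) with quantile normalization, *Mmp2* in KO induction with median centring (-0.002), and, with each library left out, *Adamtsl5* between genotypes before induction (-0.0085 to 0.0711) and in the interaction (-0.0126 to 0.0669) and *Adamts1* after induction (-0.0551 to 0.0203). Median centring moved the median of all genes in WT induction by -0.1007 and the split of DEGs there from 10 higher and 4 lower to 8 and 5. *Adamts2* (0.99) and *Adamtsl5* (0.96) were then within the fold limit and *Timp1* (-1.07) past it, and with quantile normalization *Mmp8* (0.72) was within it. Same-numbered libraries did not deviate together (correlations -0.092 to 0.03 over 15342 genes). The replicate block, which pairs libraries by number, gave 1, 2, 14, 15 and 4 DEGs in the 5 comparisons and changed no count, though the p-value alone was then missed by *Mmp8* after induction (adjusted p = 0.0831) and by *Mmp17* in the interaction (adjusted p = 0.0803). Depth and 2 libraries a group limit what can be said of the 16 genes under the minimum and of *Mmp8*, *Mmp27*, *Mmp3* and *Adamts15*, whose log2 changes depend on the pseudocount.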
